A study of Mus musculus with 8 samples.

Results

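The fast isoforms of the sarcomere are encoded by 10 genes that were taken by name from the counts of gastrocnemius RNA: the myosin heavy chains *Myh4*, *Myh1* and *Myh2*, the myosin light chains *Mylpf* and *Myl1*, the troponins *Tnnt3*, *Tnni2* and *Tnnc2*, the Z-disc protein *Actn3* and the calcium pump *Atp2a1*. Each name stood on 1 of the 32390 rows, and all 10 were among the 12725 rows with enough counts to be tested. None of the 10 was called between genotypes, against 6.16% of all rows tested. Together they took 13.7 ± 0.801% of all counts in control muscle and 14.9 ± 0.631% in NOX4-deficient muscle (SD, n = 4 mice each). By mouse, this total was 13.6, 13.2, 14.9 and 13.2% in control and 14.8, 14.5, 15.8 and 14.4% in NOX4-deficient muscle. No test was run on it.

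The study compared 4 *Nox4* fl/fl control mice with 4 *Mck*-Cre;*Nox4* fl/fl (NOX4-deficient) mice, all male, 21 months old and on a standard chow diet. Both groups carried the floxed *Nox4* allele, and only the NOX4-deficient mice carried Cre, which was driven by the muscle creatine kinase promoter. That promoter is active in differentiated skeletal muscle and to a lesser degree in heart, so that vessel, connective tissue, immune and nerve cells of the muscle keep the gene. A group with Cre and no floxed allele was not analysed here. The labels name a single batch and no separate days or litters, and nothing in them says more of the mice, so that the p-values measure the spread between these 8 samples.

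Skeletal muscle fibers are classed by the myosin heavy chain they hold. Slow fibers use *Myh7*, and the fast fibers of adult mouse limb use *Myh2* (type IIa, more oxidative), *Myh1* (type IIx) or *Myh4* (type IIb, the fastest and most glycolytic). Each class has its own light chains, its own troponin subunits on the thin filament and its own calcium pump in the sarcoplasmic reticulum. Mouse gastrocnemius is a mixed muscle in which type IIb fibers prevail. The comparison asks whether loss of NOX4 from old muscle went with a change in the amount of fast sarcomere mRNA, or in the balance of IIa, IIx and IIb myosin.

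The libraries held 16350548 to 19804661 counts, and mitochondrially encoded genes took 1.05 to 1.50% of them. *Nox4* itself is rare in whole muscle, with 35 to 85 counts in control and 29 to 43 in NOX4-deficient libraries. In CPM (counts scaled to a common library size), *Nox4* averaged 3.27 ± 1.42 in the controls and 2.07 ± 0.220 after deletion. The groups overlapped, and its log2 fold change of −0.65 did not pass edgeR's quasi-likelihood test (adjusted p = 0.207). The counts therefore do not by themselves tell the genotypes apart at the targeted gene. A gene was called at a Benjamini-Hochberg adjusted p under 0.05 over all rows and an absolute log2 fold change over 0.5, which 784 rows met (6.16%). All values are CPM scaled by trimmed mean of M values (TMM), and fold changes are NOX4-deficient over control.

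The 3 myosin genes lie side by side on the plus strand of chromosome 11 (GENCODE annotation, GRCm38), with *Myh2* at 67171027 to 67197517, *Myh1* at 67200052 to 67224575 and *Myh4* at 67238029 to 67260446. The counts carry no coordinates of their own. The promoters are shown because the genes share a cluster, and yet *Myh4* was more than 10-fold above the other two in every library. Each run spans 250 bases before to 50 after the gene start in RefSeq (GRCm38.p6, plus strand), and 7 of the 10 genes had such an entry. Capitals mark a stretch of 20 bases that all 3 hold.
*Myh4* promoter, chr11:67237562-67237861: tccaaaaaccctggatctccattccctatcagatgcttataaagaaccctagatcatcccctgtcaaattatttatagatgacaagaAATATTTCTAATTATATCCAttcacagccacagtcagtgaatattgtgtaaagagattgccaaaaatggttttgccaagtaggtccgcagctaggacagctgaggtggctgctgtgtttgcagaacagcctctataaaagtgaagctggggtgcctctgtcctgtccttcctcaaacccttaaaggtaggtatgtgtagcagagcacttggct
*Myh1* promoter, chr11:67199852-67200151: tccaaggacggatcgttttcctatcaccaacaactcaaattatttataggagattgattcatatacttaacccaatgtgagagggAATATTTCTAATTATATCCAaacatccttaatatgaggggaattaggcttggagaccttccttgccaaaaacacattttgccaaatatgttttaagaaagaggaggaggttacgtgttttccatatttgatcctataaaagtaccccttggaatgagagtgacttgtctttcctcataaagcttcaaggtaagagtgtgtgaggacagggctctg
*Myh2* promoter, chr11:67170777-67171076: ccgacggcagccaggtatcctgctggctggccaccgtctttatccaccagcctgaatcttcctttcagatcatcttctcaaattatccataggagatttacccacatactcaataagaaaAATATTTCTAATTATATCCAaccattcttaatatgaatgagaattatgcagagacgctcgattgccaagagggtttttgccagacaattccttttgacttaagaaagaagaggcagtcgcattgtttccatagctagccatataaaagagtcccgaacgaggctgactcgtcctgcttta
The stretch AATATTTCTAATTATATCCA started at −163 in *Myh4*, −165 in *Myh1* and −130 in *Myh2*, counted from the gene start, and it occurred in 3 of 32851 promoters (0.00913%), with both strands searched for this and the next motifs. The letters TATTTATAG, a form of the site of MEF2 factors, were found once in *Myh4* (at −181) and once in *Myh1* (at −210) and not in the *Myh2* window, against 0.451% of all promoters. The E-box letters CANNTG, which myogenic factors bind, were found at 3 places in *Myh4* and at none in the other two, against 72.3% of all promoters. None of these matches overlapped the shared stretch. They are descriptions of the letters only.

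The coding sequences of the 3 myosins are much alike, which bears on how well reads can be assigned. Aligned coding bases were 90.2% identical between *Myh4* and *Myh1*, 88.2% between *Myh4* and *Myh2* and 91.1% between *Myh1* and *Myh2*. Of all runs of 150 bases in the mRNA, the length of 1 read, 0.511% of *Myh4*, 2.50% of *Myh1* and 2.06% of *Myh2* also occurred in another of the myosins examined (6 others for each gene). Of runs of 50 bases, 18.9% of *Myh4*, 26.7% of *Myh1* and 26.9% of *Myh2* did so, and in the most alike window, coding bases 1321 to 1380, all 60 bases were identical in the 3 genes. The most divergent 60 bases of the coding sequence are printed to show where the isoforms differ. Capitals mark the 25 positions at which the 3 are not identical, and the other 35 are shared.
*Myh4* coding bases 3842 to 3901: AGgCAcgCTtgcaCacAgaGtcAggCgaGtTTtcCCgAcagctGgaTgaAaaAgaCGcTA
*Myh1* coding bases 3851 to 3910: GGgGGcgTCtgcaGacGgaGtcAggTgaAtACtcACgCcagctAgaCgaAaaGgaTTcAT
*Myh2* coding bases 3851 to 3910: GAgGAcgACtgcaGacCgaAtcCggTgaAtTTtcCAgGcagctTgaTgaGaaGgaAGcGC

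Among the myosin heavy chains, *Myh4* was far ahead of the others in every library. *Myh4* was at 43487, 46330.5, 55122 and 48616 CPM in the 4 control mice and at 44621, 54345, 55557 and 51651 CPM in the 4 NOX4-deficient mice. The 2 groups overlapped over most of their range, and *Myh4* alone took 4.81 ± 0.330% of all counts in control and 5.18 ± 0.538% in NOX4-deficient libraries. The log2 fold change of *Myh4* was 0.09 (SE 0.12, 95% interval −0.18 to 0.36, edgeR adjusted p = 0.710), so that this interval lies within the threshold of 0.5 on either side.

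*Myh1*, the IIx myosin, was at 1775, 2475, 2502 and 1755 CPM in control and at 1718, 1139, 999 and 2630.3 CPM in NOX4-deficient mice. The lowest value of all was in NOX4-deficient replicate 3 and the highest in NOX4-deficient replicate 4, so that the NOX4-deficient mice spanned the controls on both sides. *Myh1* had a log2 fold change of −0.39 (SE 0.28, 95% interval −1.02 to 0.24, edgeR adjusted p = 0.453), the only one of the 10 below 0. With 1 mouse left out it ran from −0.71 (without NOX4-deficient replicate 4, adjusted p = 0.0649 in edgeR) to −0.21 (without NOX4-deficient replicate 3), and it was −0.25 without replicate 2.

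*Myh2*, the IIa myosin, was at 732, 1251, 620 and 687 CPM in control and at 877, 665, 538 and 1545 CPM in NOX4-deficient mice. Control replicate 2 and NOX4-deficient replicate 4 stood above the rest, and these were also high for *Myh1*. The log2 fold change of *Myh2* was 0.14 (SE 0.34, 95% interval −0.62 to 0.90, edgeR adjusted p = 0.854), and it was −0.23 without NOX4-deficient replicate 4.

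The oxidative fast myosins varied between mice more than other abundant mRNAs did. The coefficient of variation was 19.7% in control and 45.7% in NOX4-deficient mice for *Myh1* and 35.2% and 49.5% for *Myh2*. Over the 189 rows with a mean of at least 500 CPM, the median was 9.80% in control and 12.7% in NOX4-deficient mice. Of these rows, 89.9% in control and 98.4% in NOX4-deficient mice had a lower coefficient than *Myh1*. For *Myh2* these shares were 96.8% and 98.9%.

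**Figure D1:**
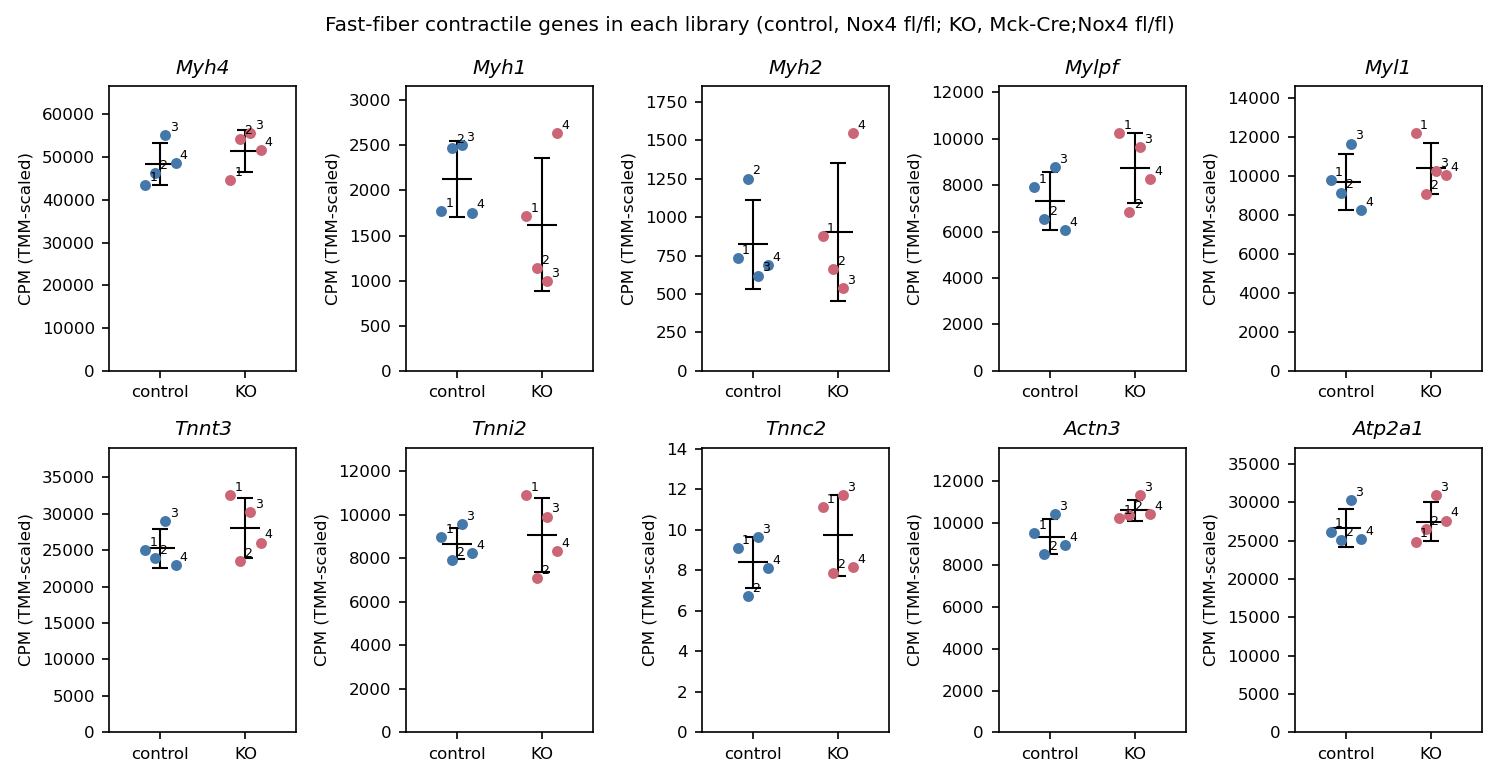
Level of each of the 10 fast-fiber genes in each of the 8 libraries, in TMM-scaled CPM, 1 panel a gene; points are mice, horizontal lines are group means and bars are SDs (n = 4). The genotypes overlap in all 10 panels, and *Myh1* and *Myh2* have the widest spread relative to their mean.

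Of the light chains, which stabilize the neck of the myosin head, *Mylpf* encodes the fast regulatory and *Myl1* the fast essential chain. *Mylpf* was at 7904, 6523, 8764 and 6069 CPM in control and at 10228, 6839, 9640 and 8249.5 CPM in NOX4-deficient mice. NOX4-deficient replicates 1 and 3 were above every control, and replicates 2 and 4 were within the control range. *Mylpf* had the highest log2 fold change of the 10, 0.26 (SE 0.16, 95% interval −0.08 to 0.60, edgeR adjusted p = 0.356).

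*Myl1* was at 9757, 9135, 11646 and 8237 CPM in control and at 12163, 9080.1, 10249.6 and 10018 CPM in NOX4-deficient mice. Its groups overlapped, with a log2 fold change of 0.10 (SE 0.14, 95% interval −0.20 to 0.39, edgeR adjusted p = 0.716).

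The fast troponins regulate the thin filament: troponin T (*Tnnt3*) ties the complex to tropomyosin, troponin I (*Tnni2*) blocks the actin-myosin contact at rest and troponin C (*Tnnc2*) binds calcium. *Tnnt3* was at 24995, 23904, 29019.6 and 22945 CPM in control and at 32545, 23436, 30208 and 26015 CPM in NOX4-deficient mice. *Tnni2* was at 8956, 7920.5, 9546 and 8243 CPM in control and at 10897, 7065, 9905 and 8326 CPM in NOX4-deficient mice. For both genes NOX4-deficient replicates 1 and 3 were above all controls while replicate 2 was below or near the lowest control. The log2 fold change was 0.15 for *Tnnt3* (SE 0.13, 95% interval −0.14 to 0.45, edgeR adjusted p = 0.540) and 0.06 for *Tnni2* (SE 0.14, 95% interval −0.25 to 0.37, edgeR adjusted p = 0.841).

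*Tnnc2* stood apart in its level, at 131 to 223 counts in a library, with means of 8.39 ± 1.27 CPM in control and of 9.71 ± 1.98 CPM in NOX4-deficient mice. Per kilobase of exon this is 10.5 CPM in control, against 15929 for *Tnnt3* and 5789 for *Tnni2*, whose proteins sit with troponin C in equal numbers in the filament. In the GRCm38 annotation 592 of the 800 exon bases of *Tnnc2* (74.0%) also lie in exons of *Ube2c*, a gene on the opposite strand. The libraries do not record strand, and *Ube2c* had 23 to 56 counts. How the counting treated reads in shared bases is not given in the sources used here, so the counts of *Tnnc2* cannot be read as its mRNA level. Its log2 fold change of 0.21 (SE 0.17, 95% interval −0.17 to 0.59, edgeR adjusted p = 0.512) carries the same limit.

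Alpha-actinin 3, the product of *Actn3*, crosslinks actin at the Z-disc of fast fibers. *Actn3* was at 9531, 8522, 10412 and 8960.1 CPM in control and at 10234, 10406, 11342 and 10435 CPM in NOX4-deficient mice. It had the least spread of the 10 in the NOX4-deficient group, and control replicate 3 lay among those mice. *Actn3* had the lowest p of the 10 genes (log2 fold change 0.18, SE 0.11, 95% interval −0.05 to 0.42, edgeR unadjusted p = 0.121, adjusted p = 0.349).

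*Atp2a1* encodes SERCA1, which returns calcium to the sarcoplasmic reticulum of fast fibers after a contraction. It was at 26169, 25007, 30247 and 25138 CPM in control and at 24856, 26478, 30934 and 27600.1 CPM in NOX4-deficient mice. The lowest and the highest library were both NOX4-deficient, and the log2 fold change was 0.04 (SE 0.12, 95% interval −0.21 to 0.30, edgeR adjusted p = 0.870). *Rabep2* on the opposite strand shares 21.9% of the exon bases of *Atp2a1* and had 136 to 341 counts.

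Across the 10 genes, none was called and none had an unadjusted p under 0.05 in edgeR, while 6.16% of all rows tested were called and 23.2% had an unadjusted p under 0.05. DESeq2 in R and pydeseq2 also called none of the 10. At an adjusted p under 0.05 with no minimum fold change the count was again 0 of 10, against 7.75% of all rows. None of the 10 had groups that did not overlap, against 16.2% of all rows (7.20% with NOX4-deficient mice above and 8.97% with them below the controls). The log2 fold change was above 0 for 9 and below 0 for 1, with a median of 0.12, where 52.3% of all rows were above 0 and their median was 0.01. For 6 genes the 95% interval lay within 0.5 of 0, and for *Myh1*, *Myh2*, *Mylpf* and *Tnnc2* it reached past 0.5 on at least 1 side. A p that misses the threshold does not show that the genotypes have equal levels. In whole muscle, a change in the share of fast fibers and a change in fast mRNA in each fiber cannot be told apart. By immunostaining of gastrocnemius, the paper saw no difference between genotypes in fiber types.

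**Figure D2:**
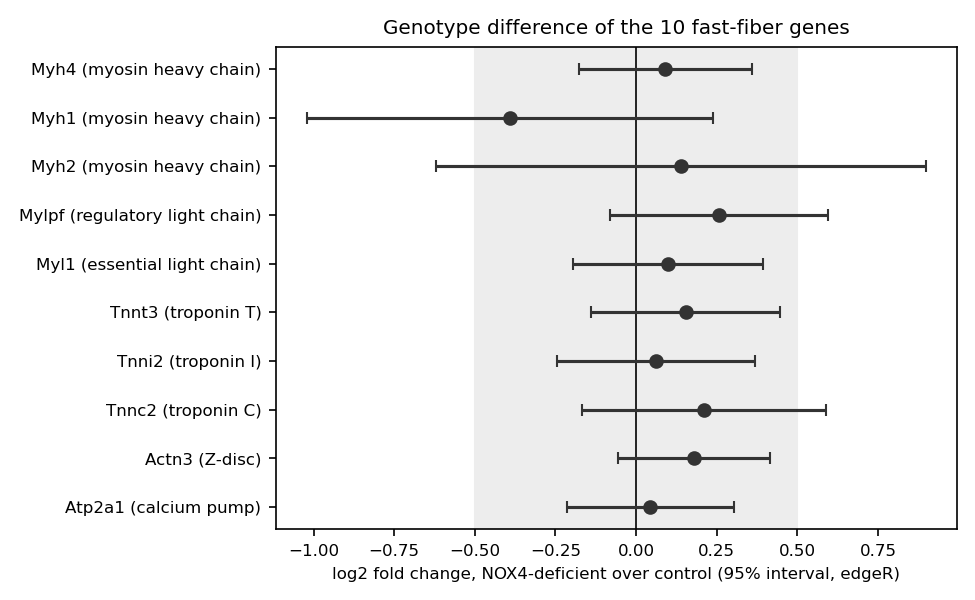
Log2 fold change (NOX4-deficient over control) of the 10 fast-fiber genes with its 95% interval from the edgeR fit over all 12725 rows; the grey band spans −0.5 to 0.5. Every interval includes 0, and those of *Myh2* and *Myh1* are the widest.

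Per kilobase of exon, the order of levels in control muscle was *Tnnt3* (15929 CPM per kb), *Myh4* (8043), *Atp2a1* (7662), *Mylpf* (6888), *Tnni2* (5789), *Myl1* (4674), *Actn3* (3225), *Myh1* (335), *Myh2* (115) and *Tnnc2* (10.5). Over all 8 libraries the range of *Tnnt3* was 14495 to 20559 and did not touch that of *Myh4*, 7229 to 9235. The ranges of *Myh4*, *Atp2a1* (7149 to 8897) and *Mylpf* (5714 to 9631) overlapped, as did those of *Mylpf*, *Tnni2* (4719 to 7279) and *Myl1* (3971 to 5864), so that these neighbours were not separated beyond their spread. *Actn3*, at 2938 to 3910, lay below all of them, and *Myh1* (157 to 414) and *Myh2* (75.3 to 216) overlapped each other. *Tnnc2* stood last under the limit on its counts given above.

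A part of the spread among the shorter mRNAs ran with the length of the transcript. Rows with under 1500 exon bases had a median log2 deviation from their mean over libraries of 0.27 in NOX4-deficient replicate 1 and 0.19 in replicate 3, against −0.21 in replicate 2 and −0.06 in replicate 4. In control libraries it was between −0.13 and 0.06. NOX4-deficient replicates 1 and 3 are those in which *Mylpf*, *Tnnt3* and *Tnni2* were highest. Whether length sets these values was not tested, but with the trend on length removed from each library none of the 10 genes was called either, and the log2 fold change moved to −0.0076 for *Tnni2*, 0.10 for *Tnnc2*, 0.09 for *Tnnt3*, 0.06 for *Myl1* and 0.17 for *Mylpf*.

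The balance of the fast myosins was taken as each gene's share of the counts on *Myh4*, *Myh1* and *Myh2*, a quantity that does not depend on how libraries are scaled. *Myh4* made up 94.6, 92.6, 94.6 and 95.2% in control and 94.5, 96.8, 97.3 and 92.5% in NOX4-deficient mice. *Myh1* made up 3.86, 4.94, 4.30 and 3.44% in control and 3.64, 2.03, 1.75 and 4.71% in NOX4-deficient mice. *Myh2* made up 1.59, 2.50, 1.06 and 1.35% in control and 1.86, 1.18, 0.941 and 2.77% in NOX4-deficient mice. NOX4-deficient replicates 2 and 3 had the highest IIb shares of all mice and replicate 4 the lowest.

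The mean share of *Myh4* was 94.2 ± 1.16% in control and 95.3 ± 2.21% in NOX4-deficient mice (n = 4 each), a difference of 1.04 percentage points (exact two-sided permutation test p = 0.543, adjusted over the 3 shares 0.814). That of *Myh1* was 4.13 ± 0.644% and 3.03 ± 1.40%, a difference of −1.10 points (exact permutation p = 0.229, adjusted 0.686). That of *Myh2* was 1.63 ± 0.621% and 1.69 ± 0.817%, a difference of 0.0624 points (exact permutation p = 0.914, adjusted 0.914). With 4 mice against 4 the smallest p this test can give is 0.0286. None of the 3 shares passed the test, which does not show that they are equal. The difference for *Myh1* was larger than the SD of the controls and smaller than that of the NOX4-deficient mice. The slow myosin *Myh7* was between 0.0373 and 0.328% of the counts on the 4 genes.

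The ratios between pairs of isoforms were chosen after the shares had been seen. The ratio of *Myh1* to *Myh2* counts was 2.43, 1.98, 4.03 and 2.55 in control and 1.96, 1.71, 1.86 and 1.70 in NOX4-deficient mice. Every NOX4-deficient mouse was below every control mouse, by a narrow margin between control replicate 2 and NOX4-deficient replicate 1. On the log2 scale the ratio was 1.41 ± 0.43 and 0.85 ± 0.10, a difference of −0.55 (exact two-sided permutation test p = 0.0286, the smallest that 4 against 4 mice allow; 0.0857 adjusted over the 3 ratios). It does not pass the threshold after that adjustment, and with any 1 mouse left out the difference lay between −0.70 and −0.35 at p = 0.0571 by the exact permutation test, again the smallest possible.

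The other 2 ratios overlapped between genotypes. The log2 ratio of *Myh4* to *Myh1* was 4.52 ± 0.24 in control and 5.09 ± 0.71 in NOX4-deficient mice, a difference of 0.57 (exact permutation p = 0.257, adjusted 0.386). For *Myh4* to *Myh2* it was 5.93 ± 0.54 and 5.94 ± 0.72, a difference of 0.01 (exact permutation p = 1).

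**Figure D3:**
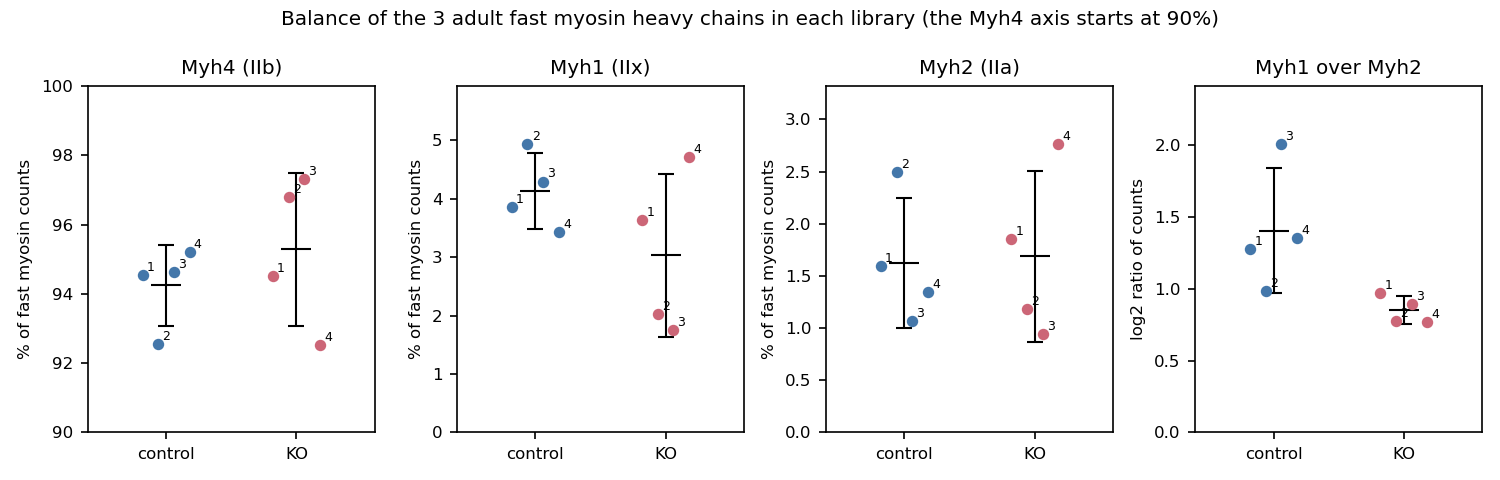
Share of each fast myosin in the counts on *Myh4*, *Myh1* and *Myh2* (percent) and the log2 ratio of *Myh1* to *Myh2* counts in each of the 8 mice, numbered by replicate (KO, NOX4-deficient); horizontal lines are means and bars SDs (n = 4), and the *Myh4* axis starts at 90%. The shares overlap between genotypes, while the log2 ratio lies between 0.77 and 0.97 in NOX4-deficient and between 0.98 and 2.01 in control mice.

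The gene on the strand opposite *Myh1* did change. *Myhas*, a long noncoding RNA of the fast myosin cluster, lies at 67211256 to 67237573 on the minus strand of chromosome 11 (GRCm38), from within *Myh1* to just before *Myh4*, and its start lies inside the *Myh4* promoter window printed above. *Myhas* was at 27.9, 28.1, 32.3 and 21.2 CPM in control and at 56.1, 47.3, 53.3 and 53.8 CPM in NOX4-deficient mice. The groups were well apart, with a log2 fold change of 0.94 (SE 0.13, 95% interval 0.66 to 1.22, edgeR adjusted p = 0.00132). *Myhas* is none of the 10 genes and was looked at after its values were seen, as a gene that shares 515 exon bases with *Myh1* (8.11% of the exon bases of *Myh1*).

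Without strand, reads in those 515 bases cannot be assigned to *Myh1* or *Myhas*. In NOX4-deficient replicates 1 to 4 *Myh1* was at 1718, 1139, 999 and 2630.3 CPM, where *Myhas* was at 56.1, 47.3, 53.3 and 53.8 CPM. Whether shared reads had a part in the values of *Myhas* was not tested. *Myhas* had 409 to 1015 counts a library and was called in all 18 alternative fits, with log2 fold changes of 0.84 to 1.05. The gene opposite *Myh2*, *9430073C21Rik*, had a log2 fold change of −0.24 (edgeR adjusted p = 0.667).

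**Figure D4:**
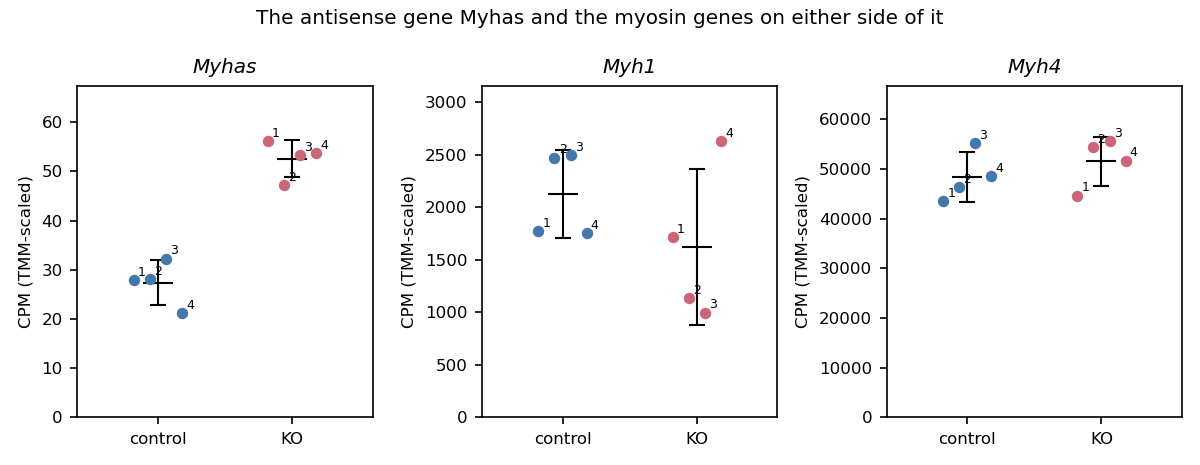
Levels of *Myhas*, *Myh1* and *Myh4* in each mouse, in TMM-scaled CPM; horizontal lines are means and bars SDs (n = 4). *Myhas* lies between 21.2 and 32.3 CPM in control and between 47.3 and 56.1 CPM in NOX4-deficient mice, while *Myh1* and *Myh4* overlap between genotypes.

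The partners of the fast sarcomere were followed in a list of 10 genes, of which 0 were called higher and 1 lower, against 2.68% and 3.48% of all rows. The median log2 fold change of the list was 0.16. *Actn2*, the alpha-actinin found in all fibers, was the gene that fell, from 847 ± 83.9 to 456 ± 147 CPM (log2 fold change −0.89, SE 0.19, edgeR adjusted p = 0.0184), with every NOX4-deficient mouse below every control mouse. *Myoz3*, a Z-disc protein that binds calcineurin, went from 291 ± 22.4 to 386 ± 11.7 CPM (0.41, adjusted p = 0.0217 in edgeR), under the fold threshold. The other 8 had adjusted p-values of 0.0628 or more in edgeR. The calcium-storing calsequestrin *Casq1* had a log2 fold change of 0.51, the triad protein *Sypl2* 0.45, the tropomyosin *Tpm1* 0.30, the calcium buffer *Pvalb* 0.27, the fast myosin-binding protein *Mybpc2* 0.04, *Myoz1* 0.01, the light chain kinase *Mylk2* −0.10 and *Smtnl1* −0.50.

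Of 21 sarcomere genes that fast and slow fibers share, 0 were called higher and 3 lower, against 2.68% and 3.48% of all rows (median log2 fold change −0.13). *Flnc*, a filamin that crosslinks actin at the Z-disc, was at 1060.2, 1209.6, 1302 and 1879 CPM in control and at 517, 618, 359 and 681 CPM in NOX4-deficient mice (log2 fold change −1.32, edgeR adjusted p = 0.00457). *Mybpc1*, the slow form of myosin-binding protein C, which fast fibers also hold, fell from 1635 ± 245 to 872 ± 189 CPM (−0.91, edgeR adjusted p = 0.00611). The Z-disc protein *Myot* fell from 1520 ± 63.7 to 1041 ± 159 CPM (−0.55, edgeR adjusted p = 0.0176), a call that was lost without control replicate 3 (−0.51, adjusted p = 0.0526) and without NOX4-deficient replicate 1 (−0.49, 0.0504) or 2 (−0.49, under the fold threshold). All 3 genes, like *Actn2*, belong to the Z-disc or the thick filament and not to the fast isoforms.

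A list of 10 slow-fiber genes had log2 fold changes above 0 for all 10, with 1 called higher (against 2.68% of all rows) and a median of 0.64. In it, *Casq2* and *Tpm3* pair with *Casq1* and *Tpm1*, which are not among the 10 fast-fiber genes. The list leaves out *Actn2* (−0.89) and the slow form *Mybpc1* (−0.91), which fell and stand in the lists above. *Casq2*, the slow and cardiac calsequestrin, rose from 13.8 ± 3.66 to 27.9 ± 8.93 CPM (1.02, edgeR adjusted p = 0.0221), a call lost without control replicate 3 (adjusted p = 0.0576) or control replicate 4 (0.0585). The slow myosin *Myh7* was at 24.7, 76.3, 33.3 and 22.7 CPM in control and at 17.6, 74.0, 70.2 and 184 CPM in NOX4-deficient mice (1.14, edgeR adjusted p = 0.401). The log2 fold changes of the other 8 were 0.35 for *Myh7b*, 0.39 for *Myl2*, 0.62 for *Myl3*, 0.85 for *Tnnt1*, 0.80 for *Tnni1*, 0.66 for *Tnnc1*, 0.57 for *Tpm3* and 0.61 for *Atp2a2*, with adjusted p-values of 0.276 or more in edgeR.

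All 10 slow genes were highest in the same library, NOX4-deficient replicate 4, which was also the highest for *Myh1* and *Myh2*. The summed level of the 10 slow genes was 348 to 748 CPM in control and 454 to 1298 CPM in NOX4-deficient libraries. Without that library all 10 slow genes were still above 0 and *Casq2* was still called (log2 fold change 0.79, edgeR adjusted p = 0.0321), while the median of the list fell to 0.37, the log2 fold change of *Myh7* to 0.47 and that of *Myl2* to 0.03.

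A list of 6 genes held developmental isoforms, which adult fibers lose after birth and re-express on regeneration, and the extraocular myosin *Myh13*. Of the 6, 1 was called higher and 0 lower, against 2.68% and 3.48% of all rows, with a median log2 fold change of 0.01. Embryonic myosin *Myh3* rose from 1.96 ± 0.445 to 4.77 ± 1.12 CPM, or 31 to 105 counts a library (log2 fold change 1.28, edgeR adjusted p = 0.00807). The others did not pass the test. Neonatal *Myh8* had a log2 fold change of 0.08, atrial light chain *Myl4* 0.99, cardiac troponin *Tnnt2* −1.60, cardiac actin *Actc1* −0.07 and extraocular *Myh13* −0.64. The value of *Tnnt2* rested on control replicate 4, at 30.3 CPM against 2.09 to 2.73 CPM in the other controls. NOX4-deficient mice were at 1.92 to 4.27 CPM.

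A list of 21 regulators of muscle fiber genes was followed, not all of which favor fast fibers. Of these, 1 was called higher and 1 lower, against 2.68% and 3.48% of all rows (median log2 fold change −0.22). *Mafa*, a large Maf transcription factor that activates the IIb myosin gene, was at 34.1, 29.0, 34.1 and 26.5 CPM in control and at 96.4, 95.5, 118 and 77.8 CPM in NOX4-deficient mice. Every NOX4-deficient mouse was far above the controls, with a log2 fold change of 1.65 (SE 0.14, 95% interval 1.35 to 1.95, edgeR adjusted p = 4.99e-05), while *Myh4* moved by 0.09. *Maf*, which encodes a related factor, had a log2 fold change of 0.14 and did not pass (edgeR adjusted p = 0.544). *Vgll2*, a cofactor of TEAD factors in muscle, fell from 53.3 ± 13.3 to 28.5 ± 7.08 CPM (−0.90, edgeR adjusted p = 0.0222), with groups that overlapped. Its call was lost without control replicate 1 or 2 or without NOX4-deficient replicate 1, 2 or 3 (adjusted p from 0.0508 to 0.0684).

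Among 7 genes that fold myosin or assemble and turn over the thick filament, 0 were called higher and 3 lower, against 3.48% of all rows called lower. *Trim63*, the ubiquitin ligase MuRF1, which marks sarcomere proteins for degradation, was at 836, 562, 961 and 1657 CPM in control and at 226, 247, 218 and 192 CPM in NOX4-deficient mice. The groups were far apart (log2 fold change −2.18, edgeR adjusted p = 0.00202). The chaperone *Hsp90aa1* fell from 80.3 ± 13.4 to 46.6 ± 3.11 CPM (−0.78, edgeR adjusted p = 0.00327). The small heat shock protein *Hspb7* fell from 541 ± 119 to 242 ± 87.2 CPM (−1.16, edgeR adjusted p = 0.0198), a call lost without NOX4-deficient replicate 2 (adjusted p = 0.0707) and with no filter on low counts (0.0876). *Trim55* went the other way, from 66.4 ± 5.91 to 86.3 ± 4.49 CPM (0.38, edgeR adjusted p = 0.0340), under the fold threshold. Every NOX4-deficient mouse was above every control mouse for *Trim55* and below for *Trim54* (−0.27, edgeR adjusted p = 0.104), which did not pass. The myosin chaperone *Unc45b* (−0.13) and the methyltransferase *Smyd1* (0.09) did not pass either.

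**Figure D5:**
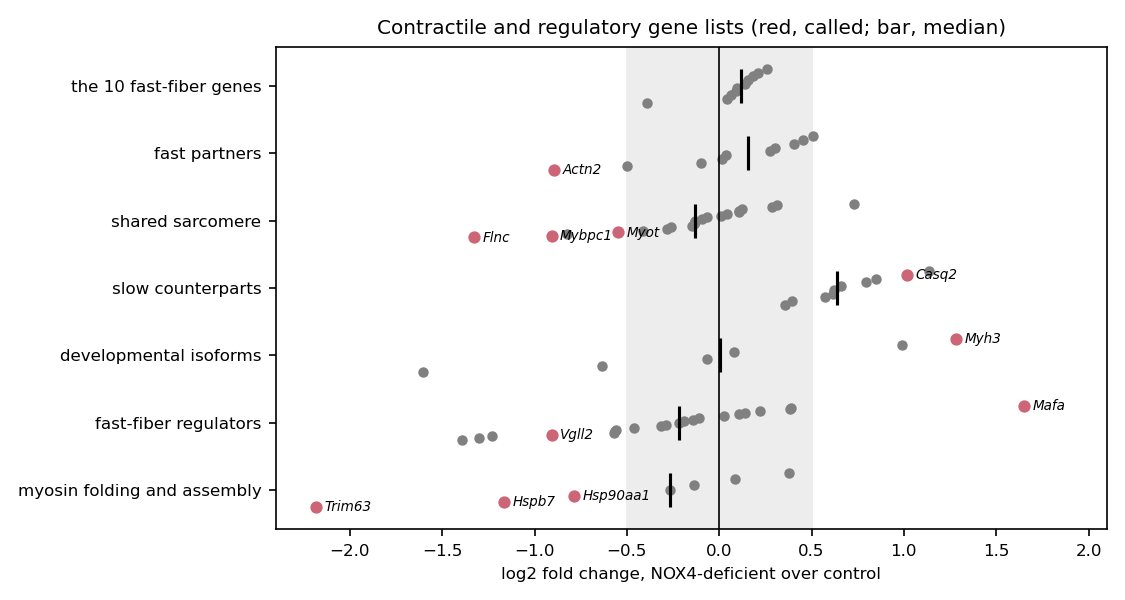
Log2 fold change (NOX4-deficient over control) of every tested gene in the 10 fast-fiber genes and in 6 related lists; each point is a gene, red points are called and named, short bars are list medians and the grey band spans −0.5 to 0.5. The fast-fiber genes lie between −0.39 and 0.26, and the genes listed as slow counterparts all lie above 0, while the slow form *Mybpc1* stands under shared sarcomere.

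The tissue and its other cells were read from marker lists. Of 6 muscle identity genes, 0 were called, and their summed level was 49157 to 58522 CPM in control and 54384 to 60919 CPM in NOX4-deficient libraries, so that the defining mRNAs of skeletal muscle were abundant in every library. Adipocyte, endothelial, fibroblast and tendon, immune, nerve and Schwann cell, smooth muscle, satellite cell and denervation lists had no gene called either, against 6.16% of all rows. The nerve and Schwann cell list had all 5 genes above 0 (median log2 fold change 0.53). In the adipocyte list 4 genes were above and 2 below 0 (median 0.59). The immune list had all 6 genes below 0 (median −0.58) with a summed level of 31.1 to 77.4 CPM in control and 15.1 to 38.9 CPM in NOX4-deficient libraries. In the blood list 2 of 3 tested genes were called higher, against 2.68% of all rows, with *Hba-a1* going from 14.1 ± 1.11 to 33.4 ± 12.8 CPM (log2 fold change 1.24, edgeR adjusted p = 0.00978) and *Hbb-bs* from 35.3 ± 2.01 to 70.9 ± 26.0 CPM (1.00, edgeR adjusted p = 0.0153). The summed level of the blood list was 48.2 to 53.1 CPM in control and 70.9 to 159 CPM in NOX4-deficient libraries. Their part in the values above was not tested.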

How the data were processed

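Per the paper's methods, poly(A)-selected, unstranded RNA of gastrocnemius was sequenced as read pairs and processed with nf-core rnaseq 3.10.1, and the submitters' notes name STAR and GRCm39. The annotation release and the counter's settings are not given in the sources used here. The values the authors deposited are raw, unnormalized read counts, with a row for each gene symbol and a column for each mouse. All 8 columns matched a sample.

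Of 32390 rows, 11715 held no count and 412 repeated a name. A repeated name stands for its row with most counts, and no gene of the 10 was repeated. Replicates differed beyond counting noise in every pair (chi-square per degree of freedom 11.0 to 45.6).

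Counts were fitted in R 4.3.3 with edgeR 4.0.16 (TMM, filterByExpr, estimateDisp, robust glmQLFit, glmQLFTest) on all 8 libraries with a term for genotype alone, and Benjamini-Hochberg adjustment ran over the 12725 rows tested. The common biological coefficient of variation was 0.174. Shares and ratios were compared by exact permutation tests (scipy 1.17.1). The fit was tested on simulated data first. Alternatives used DESeq2 1.42.0 and pydeseq2 0.5.4, other scalings and filters, a replicate block and each library left out. Chosen after seeing the data were removal of the trend on length, the pairwise ratios and the slow genes without 1 library. Exon lengths and overlaps came from GENCODE M21 (GRCm38), another build than the counts, and were matched by gene name. Errors are SDs over 4 mice, and counting error is small except in rare genes such as *Nox4*.

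The 10 genes and the lists were chosen with earlier results of these data known. Named in the text are the 10 genes, the genes called in each list (up to 6), every tested gene among fast partners, slow counterparts and developmental isoforms, *Nox4*, and the 3 rows most like each myosin. *Myhas*, other overlapping genes and uncalled genes of the other lists were named after their values were seen.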

Additional observations from a re-analysis of the deposited data

Results flagged for a closer look

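In 5 of 118 groups of 4 mice 1 library stood apart by Dixon's ratio (gap to the nearest value over the whole range, at the critical value for 4 samples), where chance gives about 5.9. *Myl2*, the slow regulatory light chain, was at 182 CPM in NOX4-deficient replicate 4 against 73.0 to 88.4 in the other 3 mice (ratio 0.859). Cardiac troponin *Tnnt2* was at 30.3 CPM in control replicate 4 against 2.09 to 2.73 in the other 3 (ratio 0.977), and the NOX4-deficient mice were at 1.92 to 4.27 CPM. *Nox4* was at 1.74 CPM in NOX4-deficient replicate 1, below the 2.17 to 2.21 of the other 3 (ratio 0.918). The small heat shock gene *Hspb7* was at 718 CPM in control replicate 4 against 471 to 505 in the other 3 (ratio 0.864). *9430073C21Rik*, opposite *Myh2*, was at 4.39 CPM in NOX4-deficient replicate 4 against 2.64 to 2.89 in the other 3 (ratio 0.861). None of the 10 fast-fiber genes and none of the 3 myosin shares had a library that stood apart in this way.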

How the results depend on the processing

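None of the 10 fast-fiber genes was called under any of 19 alternatives, while the number of all rows called ran from 499 (without control replicate 4) to 1018 (DESeq2 in R), against 784. With 1 mouse left out it was 499 to 712. Of the 10 log2 fold changes, 7 kept their direction in all 18 alternative fits. With 1 mouse left out *Myh2* ran from −0.23 (without NOX4-deficient replicate 4) to 0.41, *Tnni2* from −0.028 (without NOX4-deficient replicate 1) to 0.16 and *Atp2a1* from −0.0067 (without NOX4-deficient replicate 3) to 0.13. *Tnni2* was at −0.0076 with the trend on length removed. The cause was not tested. The difference in the *Myh2* share ran from −0.297 to 0.354 points with 1 mouse left out (below 0 without control replicate 3, −0.124, control replicate 4, −0.0307, or NOX4-deficient replicate 4), that of *Myh1* from −1.66 to −0.674 and that of *Myh4* from 0.363 to 1.96. The log2 ratio of *Myh1* to *Myh2* differed by −0.70 to −0.35 with 1 mouse left out, where fewer mice alone keep p at 0.0571 or more. Depth limits *Nox4*, *Tnnc2* and *Myh3*, which had few counts.

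The replicate numbers are not stated to mark a shared litter, batch or day. Same-numbered libraries correlated at 0.223, 0.147, 0.041 and 0.0412 in their deviations from the group means. Different-numbered libraries ran from −0.215 to 0.188, so that the highest value was a same-numbered one. As nothing states what the numbers mean, they were not taken as pairs in the main fit. With the replicate number as a block 933 rows and none of the 10 genes were called, and the calls of *Casq2* (adjusted p = 0.0733) and *Vgll2* (0.112) were lost in edgeR. The log2 ratio of *Myh1* to *Myh2* kept its difference of −0.55 under the replicate block, with an exact sign-flip p of 0.125, the smallest that 4 pairs allow.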

Other observations

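The counts on *Actn3* and *Actn2*, the fast and the general alpha-actinin of the Z-disc, moved apart. This ratio was chosen after the values of both genes were seen and is a description with no test. It was 11.5, 8.83, 12.7 and 11.7 in control mice and 19.2, 31.2, 34.0 and 16.7 in NOX4-deficient mice, with means of 11.2 ± 1.64 and 25.3 ± 8.58. All 4 NOX4-deficient mice lay above the controls, and the change was carried by *Actn2*, since *Actn3* had a log2 fold change of 0.18.

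The rows whose log2 CPM ran most like each myosin over the 8 libraries were found by Pearson's r, which is given as a description over libraries that share depth and length effects. For *Myh1* they were *Tcaim* (0.956), the mitochondrial pyruvate carrier *Mpc1* (0.953) and extraocular myosin *Myh13* (0.942, at under 1 CPM). For *Myh2* they were *Ccdc85a* (0.962), *2810004N23Rik* (0.938) and *Mpped2* (0.920). For *Myh4* they were *Gm49747* (0.944), *Gm36839* (0.929) and *Rassf10* (0.923), all of them with group means under 1 CPM.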
